A study of Homo sapiens with 6 samples.

Results

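The mRNA levels of 10 genes of glucose and lactate transport were compared between HT29 cells depleted of ALDOA and control HT29 cells. The genes were chosen by name and function: the glucose and fructose transporters SLC2A1, SLC2A3, SLC2A5, SLC2A6 and SLC2A8, the lactate transporters SLC16A1 and SLC16A3, their partner basigin (BSG), and the α-arrestins TXNIP and ARRDC4. All 10 symbols were found among the 28278 gene symbols of the deposited count tables, and 7 of them had enough counts to be tested.

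HT29 is a human colorectal adenocarcinoma line. The 3 siALDOA libraries came from cells given a siRNA against ALDOA and the 3 siControl libraries from cells given a scrambled siRNA, and total RNA was taken after 48 h from biological replicates. The labels speak of a siRNA to ALDOA in the singular, its sequence is not given in the sources used here, and untransfected cells are not among the samples, so off-target effects of the siRNA cannot be told apart from those of ALDOA depletion. In bulk RNA, likewise, fewer cells of a kind and less RNA per cell cannot be told apart. The libraries held from 27277538 to 33237914 counts, and ribosomal RNA genes took 7.71% to 13.1% of the siALDOA counts and 8.15% to 17.4% of the siControl counts. Levels are given as CPM, the usual scaling of counts by library size, here with TMM-adjusted sizes, and fold changes, tests and intervals come from edgeR's quasi-likelihood fit over all 15307 tested genes with Benjamini-Hochberg adjustment. ALDOA itself was at 283, 305 and 279.7 CPM with siALDOA and at 592, 637 and 668 CPM with siControl (log2 fold change -1.13, standard error, SE, 0.060, adjusted p = 6.95e-11). Of 11 colon epithelium markers 10 were measured above the filter, and their summed level was 9479 to 9811 CPM with siALDOA and 10045 to 10606 CPM with siControl, mostly from KRT8 (log2 fold change -0.14, adjusted p = 0.357). Of these markers KRT19 rose (0.38 on the log2 scale, adjusted p = 5.77e-04), KRT18 fell (-0.28, adjusted p = 0.0152) and 8 did not pass. The 8 fibroblast markers summed to at most 5.21 CPM in any library. The 8 blood cell markers summed to 16.6 to 18.2 CPM with siALDOA and 13.3 to 15.1 CPM with siControl, mostly CD14 (log2 fold change 0.32, adjusted p = 0.0485), while CD3E and TYROBP were at 0. PTPRC, the general leukocyte marker of the list, had 1 count, in siControl replicate 3. The labels name HT29 cells alone, and the source of the counts of fibroblast and blood cell markers was not tested.

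Glucose enters most cells through the GLUT carriers of the SLC2A family, and glycolytic cells release the lactate they make through the proton-coupled monocarboxylate carriers (MCT) of the SLC16A family, which need basigin to reach the plasma membrane. Aldolase A, the product of ALDOA, splits fructose-1,6-bisphosphate between these steps. TXNIP and ARRDC4 are related α-arrestins that lower glucose uptake. Their genes are textbook targets of MondoA and ChREBP, transcription factors that bind with their partner MLX when glucose phosphates accumulate, so their mRNAs are widely used as readouts of glucose supply.

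Of the 7 tested members, TXNIP rose and SLC2A1 and SLC16A3 fell at an adjusted p under 0.05, while SLC2A8, SLC16A1, BSG and ARRDC4 did not pass. Over all tested genes 4.36% rose and 5.29% fell at this threshold, 668 and 810 genes. With library totals only in place of TMM, 896 genes rose and 279 fell, and of the members 1 rose and 0 fell. With the ribosomal RNA genes left out under that scaling, 735 genes rose and 760 fell. Of the members 1 then rose and 2 fell. The CPM ranges of both groups did not overlap for TXNIP, which was higher with siALDOA, and for SLC2A1, SLC16A1 and SLC16A3, which were lower. Such separation was seen toward higher values in 13.1% and toward lower values in 14.6% of all tested genes. The median log2 fold change of the 7 members was -0.11, against 0.0016 over all tested genes. None of the 3 changes reached 1.5-fold.

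**Figure D1:**
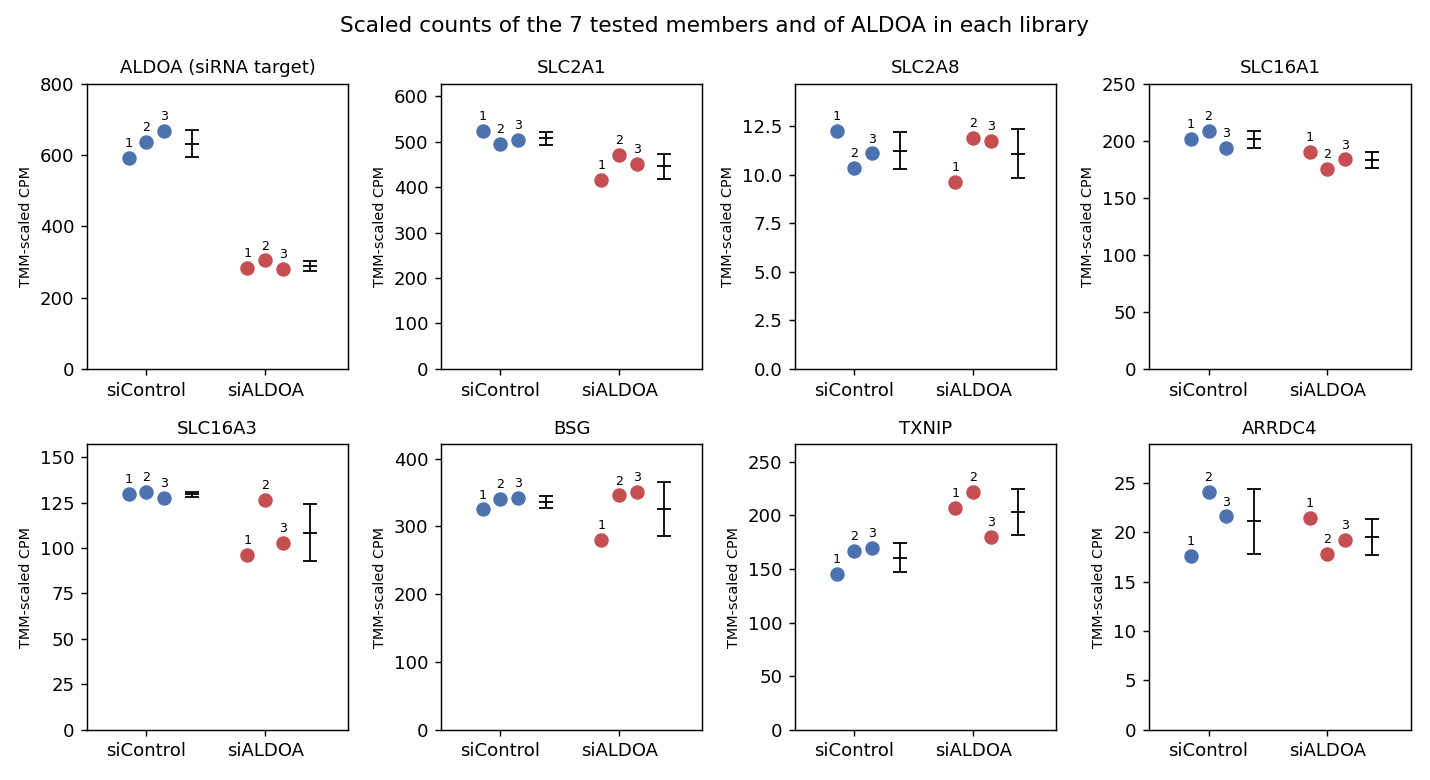
TMM-scaled CPM (y axes, from 0) of ALDOA and of the 7 tested members in the 3 siControl (blue) and 3 siALDOA (red) libraries. Digits give the replicate number, and the bar beside each group is its mean ± SD (n = 3). The red points of TXNIP lie above and those of SLC2A1, SLC16A1 and SLC16A3 below all blue points, while the groups overlap for SLC2A8, BSG and ARRDC4.

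TXNIP encodes an arrestin that binds reduced thioredoxin and promotes the internalisation of GLUT1, and AMPK marks the protein for degradation. The gene (ENSG00000265972) spans 145992435 to 145996579 of chromosome 1 (hg38, minus strand). Its mRNA was at 207, 222 and 179.7 CPM with siALDOA and at 145, 167 and 169 CPM with siControl. All 3 siALDOA libraries were above every siControl library, with siALDOA replicate 3 closest to the controls. The level rose from 160.5 ± 13.4 CPM (SD, n = 3) to 203 ± 21.4 CPM (SD, n = 3), or 1.27-fold. On the log2 scale this was 0.34 (SE 0.074, 95% interval 0.18 to 0.49, adjusted p = 0.00500). The gene kept an adjusted p under 0.05 under 13 of the 14 alternatives in normalization, tool, filter, pairing and libraries. Without siALDOA replicate 2 the log2 fold change was 0.27 with an adjusted p of 0.0506.

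ARRDC4, the arrestin whose gene shares the glucose response of TXNIP, did not pass the test. The gene (ENSG00000140450) lies on the plus strand of chromosome 15 from 97960703 to 97973833. It was at 21.5, 17.8 and 19.2 CPM with siALDOA and at 17.6, 24.1 and 21.6 CPM with siControl, so that the groups overlapped, with siControl replicates 2 and 3 above and siControl replicate 1 below all siALDOA libraries. The log2 fold change was -0.11 (SE 0.11, 95% interval -0.34 to 0.12, adjusted p = 0.598). With 1 library left out it ranged from -0.23 (without siControl replicate 1) to -0.0088 (without siControl replicate 2). The interval of ARRDC4 from all 6 libraries lies below the interval of TXNIP. The ratio of TXNIP to ARRDC4 counts within a library does not depend on the scaling. It was 9.65, 12.4 and 9.35 with siALDOA and 8.25, 6.93 and 7.84 with siControl. The ratio was thus higher in all 3 siALDOA libraries, with a mean log2 difference of 0.44 and a p of 0.1 in a two-sided exact permutation test, the smallest that 3 libraries against 3 allow. It was 0.2 after adjustment over the 4 ratios compared. The ratio of TXNIP to SLC2A1 counts was 0.499, 0.471 and 0.398 with siALDOA and 0.277, 0.337 and 0.336 with siControl. Since TXNIP was higher and SLC2A1 lower in every siALDOA library, this ratio had to separate the groups, and it is given as a description only.

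The bases before the start of both genes are shown because the 2 genes are taken as targets of the same factors while TXNIP alone passed the test here. A carbohydrate response element is a pair of E-box-like sites at a fixed spacing. The 250 bases upstream of each RefSeq start (GRCh38.p14) were searched on both strands for the pair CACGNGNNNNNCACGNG and for a single E-box, CACGTG, which can form part of such a pair. The matches are in capitals. The TXNIP window is chr1:145996580-145996829 on the minus strand and the ARRDC4 window is chr15:97960453-97960702 on the plus strand.
TXNIP: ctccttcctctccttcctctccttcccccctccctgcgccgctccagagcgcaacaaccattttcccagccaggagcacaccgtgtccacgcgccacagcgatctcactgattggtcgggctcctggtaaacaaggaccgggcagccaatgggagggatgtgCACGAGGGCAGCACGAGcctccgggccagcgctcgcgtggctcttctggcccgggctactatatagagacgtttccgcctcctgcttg
ARRDC4: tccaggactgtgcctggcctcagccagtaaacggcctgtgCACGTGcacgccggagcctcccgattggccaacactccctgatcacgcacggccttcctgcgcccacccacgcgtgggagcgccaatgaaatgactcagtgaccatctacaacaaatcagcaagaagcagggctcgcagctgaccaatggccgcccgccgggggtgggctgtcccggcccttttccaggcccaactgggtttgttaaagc

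The TXNIP window held the paired element, with its first base 88 bases before the start, and no CACGTG. The window of a second TXNIP start in the table, at 145995744, held neither. The ARRDC4 window held 1 CACGTG, 210 bases before the start, and no paired element of these letters. Of the 35116 windows of all RefSeq starts, 0.0456% held the pair and 6.34% held CACGTG. These are matches of letters and do not show that a factor was bound.

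The factors themselves were measured in the same libraries. MLXIP, which encodes MondoA, was at 143, 133 and 142 CPM with siALDOA and at 137, 114 and 131 CPM with siControl (log2 fold change 0.13, 95% interval -0.0070 to 0.27, adjusted p = 0.239). MLXIPL, which encodes ChREBP, was low, from 0.732 to 1.61 CPM over the 6 libraries. MLX had a log2 fold change of -0.16 (adjusted p = 0.120), although all 3 siALDOA libraries were below the siControl libraries. Of 8 other glucose-responsive targets of these factors (PKLR, KLF10, GPD1, HK2, PFKFB3, FASN, ACACA and ACACB), 0 passed an adjusted p of 0.05 in edgeR in either direction. With 4.36% of all tested genes higher and 5.29% lower at this threshold, 0 of 8 is near the share of all genes. Their median log2 fold change was -0.077, and their changes ranged from -0.30 to 0.40. PFKFB3 lay at the lower end with an adjusted p of 0.0538 and ACACB at the upper end with 0.0698.

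Among the GLUT carriers, SLC2A1 held nearly all of the signal. SLC2A1 encodes GLUT1, the carrier of basal glucose uptake (ENSG00000117394, minus strand of chromosome 1, 42925353 to 42958893). It was at 416, 471 and 451 CPM with siALDOA and at 523, 495 and 505 CPM with siControl. Every siALDOA library was below every siControl library, and siALDOA replicate 1 was the lowest. The level fell from 508 ± 14.5 CPM (SD, n = 3) to 446 ± 28.03 CPM (SD, n = 3), which was -0.19 on the log2 scale (SE 0.058, 95% interval -0.31 to -0.065, adjusted p = 0.0473). This call was close to the threshold. Leaving out 1 library at a time ended it in 5 of 6 cases, with an adjusted p of 0.0987 without siALDOA replicate 1, 0.0934 without siALDOA replicate 3, and 0.135, 0.0891 and 0.149 without siControl replicates 1, 2 and 3. Requiring at least 10 counts in every library gave an adjusted p of 0.0541. Scaling by library totals only gave -0.11 (adjusted p = 0.489), a scaling under which the median of all genes was 0.075, and leaving out the ribosomal RNA genes under the same scaling gave -0.18 (adjusted p = 0.0405).

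SLC2A8, the intracellular carrier GLUT8, was at 9.63, 11.9 and 11.8 CPM with siALDOA and at 12.3, 10.4 and 11.1 CPM with siControl. The groups overlapped, and the log2 fold change was -0.017 (95% interval -0.27 to 0.24, adjusted p = 0.953), with a sign that turned under scaling by library totals only (0.059), without siALDOA replicate 1 (0.074) and without siControl replicate 1 (0.049). At this level a change of the size seen in SLC2A1 lies within the interval and was not detectable.

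The other 3 GLUT genes among the members were not tested. SLC2A5, the fructose carrier GLUT5 of the small intestine, had 1 count in siALDOA replicate 2, 2 counts in siControl replicate 3 and 0 in the other libraries. SLC2A3, the high-affinity carrier GLUT3, and SLC2A6, the lysosomal carrier GLUT6, are listed at 0 in every library. These zeros cannot be read as absence of the mRNA. RPL7A, which encodes a protein of every ribosome and lies near SLC2A6 on chromosome 9, is also listed at 0 in all 6 libraries, whereas the rest of the 77 cytosolic ribosomal protein genes had at least 1039 counts in each library. MED22, SURF2 and SURF6, neighbours of RPL7A, are likewise listed at 0, while SURF4 of the same cluster had from 10545 to 11821 counts. SLC2A14, a close copy of SLC2A3 beside it on chromosome 12, is listed at 0 as well, and so is the colon marker LGALS4.

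Levels can be set side by side between genes only per length, here as CPM per kb of the canonical GENCODE transcript. The annotation the authors counted on is not stated, so these lengths are approximate. On this scale SLC2A1 was at 150.02 ± 4.29 (SD, n = 3) with siControl and 132 ± 8.28 (SD, n = 3) with siALDOA. The next GLUT, SLC2A8, was at 5.24 ± 0.445 (SD, n = 3) with siControl. SLC2A12 followed at 3.03 ± 0.352 (SD, n = 3), SLC2A11 at 1.87 ± 0.367 (SD, n = 3) and SLC2A10 at 1.46 ± 0.0604 (SD, n = 3), of which SLC2A11 and SLC2A10 overlapped in siControl. SLC2A1 made up 92.1%, 92.7% and 92.6% of the summed level of the 14 GLUT genes in the siControl libraries and 91.2%, 91.7% and 90.8% in the siALDOA libraries. The share was lower in all 3 siALDOA libraries, with means of 91.2% and 92.5%, and it leaves out whatever SLC2A3 and SLC2A6 mRNA was not counted.

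**Figure D2:**
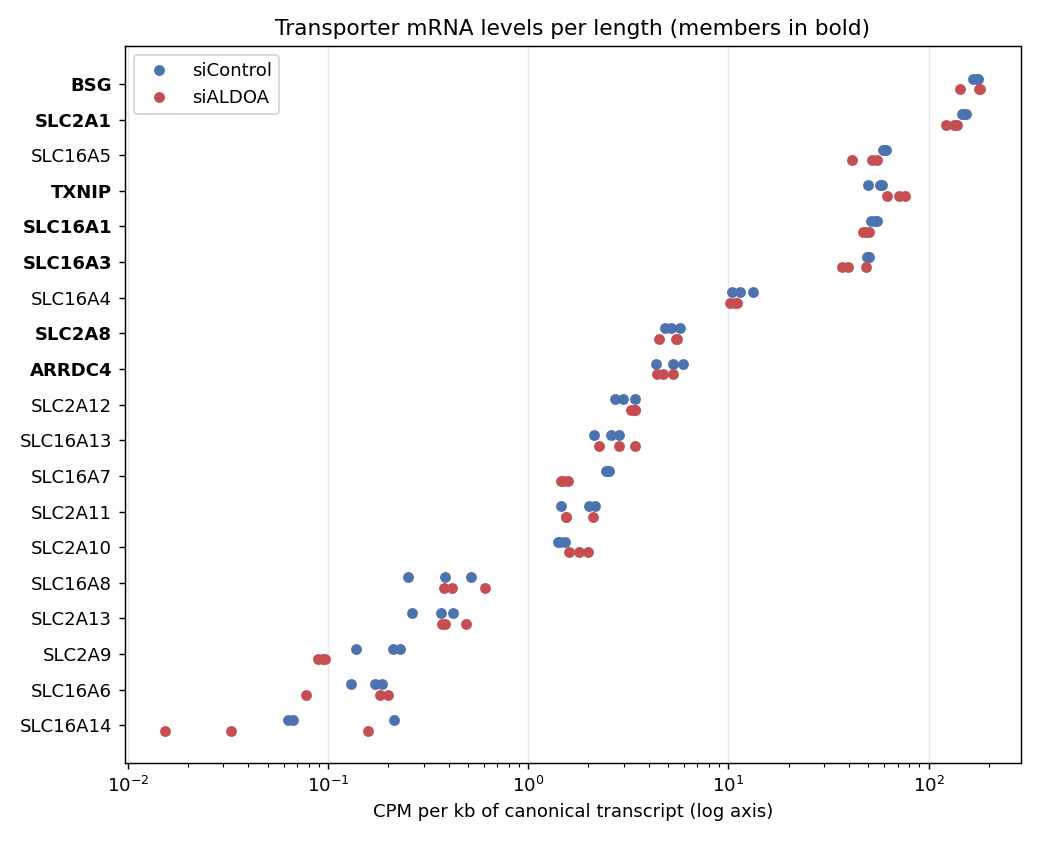
CPM per kb of canonical transcript (x axis, log scale) of each GLUT and MCT gene with a siControl mean of at least 0.1 and of BSG, TXNIP and ARRDC4, ordered by the siControl mean, with members in bold. Each point is 1 library (siControl blue, siALDOA red). BSG and SLC2A1 stand highest and SLC16A5, TXNIP, SLC16A1 and SLC16A3 follow, while the other GLUT genes lie under 6.

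Both lactate carriers of the list were lower in every siALDOA library, and 1 of them passed the test. SLC16A3 encodes MCT4, the low-affinity carrier that exports lactate from glycolytic cells (ENSG00000141526, plus strand of chromosome 17, 82217934 to 82261129). It was at 96.4, 126 and 103 CPM with siALDOA and at 129.8, 130.8 and 128 CPM with siControl. The siControl libraries lay close together, and siALDOA replicate 2 was just below them. SLC16A3 fell from 129 ± 1.61 CPM (SD, n = 3) to 108 ± 15.9 CPM (SD, n = 3), which was -0.25 on the log2 scale (SE 0.077, 95% interval -0.42 to -0.093, adjusted p = 0.0418). Without siALDOA replicate 2 the log2 fold change was -0.38 (adjusted p = 0.00185), and the call was lost without any other library: the adjusted p was 0.128 without siALDOA replicate 1, 0.151 without siALDOA replicate 3, and 0.0829, 0.131 and 0.0995 without siControl replicates 1, 2 and 3. Scaling by library totals only gave -0.18 (adjusted p = 0.260). Leaving out the ribosomal RNA genes under the same scaling gave -0.25 (adjusted p = 0.0449). In GENCODE the span of SLC16A3 overlaps CSNK1D on the other strand, and the strand setting of the counting is not stated. CSNK1D stood at -0.060 on the log2 scale (SE 0.057, adjusted p = 0.583).

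SLC16A3 is a known target of hypoxia-inducible factors, and its start with the densest matches is shown for that reason. The window is chr17:82228792-82229041 on the plus strand of GRCh38.p14, searched on both strands for ACGTG, the core of a hypoxia response element, which also lies within CACGTG, with matches in capitals.
SLC16A3: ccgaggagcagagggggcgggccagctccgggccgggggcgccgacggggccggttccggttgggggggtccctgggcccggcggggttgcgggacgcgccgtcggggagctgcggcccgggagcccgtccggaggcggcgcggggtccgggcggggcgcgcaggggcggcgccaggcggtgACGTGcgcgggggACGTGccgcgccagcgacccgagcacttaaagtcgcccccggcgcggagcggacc

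The window held 2 matches, 68 and 55 bases before the start, and the windows of the other starts of SLC16A3 in the table held none. Of all windows 18.5% held at least 1 ACGTG. The SLC2A1 window held none of the 3 motifs searched.

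SLC16A1 encodes MCT1, the carrier of lactate uptake and release in most tissues (ENSG00000155380, minus strand of chromosome 1, 112911847 to 112957593). It was at 190.2, 176 and 184 CPM with siALDOA and at 202, 208 and 194 CPM with siControl. The groups did not overlap, but the log2 fold change of -0.14 (SE 0.057, 95% interval -0.26 to -0.017) had an adjusted p of 0.147 and did not pass under any of the 14 alternatives. The antisense gene SLC16A1-AS1, which overlaps SLC16A1, had a siControl mean of 2.23 CPM. The ratio of SLC16A3 to SLC16A1 counts was 0.507, 0.720 and 0.558 with siALDOA and 0.643, 0.628 and 0.659 with siControl. It overlapped between the groups, with siALDOA replicate 2 highest and the other siALDOA libraries lowest. With 3 libraries against 3 the exact permutation test of such a ratio cannot go below 0.1, and an unequal change of the 2 carriers was not tested in another way.

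Basigin, the chaperone of both carriers, was the most abundant member per length. BSG (ENSG00000172270, plus strand of chromosome 19, 571277 to 583494) was at 280.1, 346 and 351 CPM with siALDOA and at 325, 340.4 and 342 CPM with siControl. The siALDOA libraries lay on both sides of the controls, with replicate 1 lowest. The log2 fold change was -0.044 (95% interval -0.19 to 0.10, adjusted p = 0.763), and its sign turned with library totals only and without siALDOA replicate 1. Replicate 1 of siALDOA was the lowest library for SLC2A1, SLC2A8, SLC16A3 and BSG, and it also had the highest ribosomal RNA share of its group. For SLC16A1 and ARRDC4 it was the highest of its group. Replicate 1 of siControl had the highest ribosomal RNA share of all libraries (17.4%). That library was the highest for SLC2A1 and SLC2A8 and the lowest for TXNIP and ARRDC4. The part of the ribosomal RNA share in these values was not tested.

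**Figure D3:**
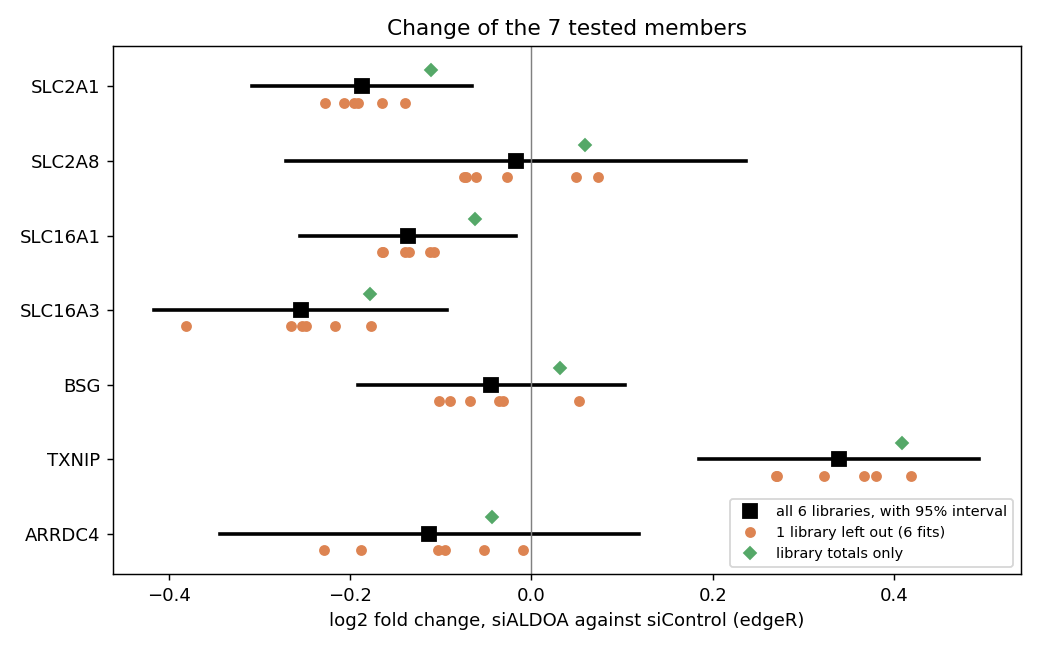
Log2 fold change (x axis, siALDOA against siControl) of each tested member. Squares with bars are the edgeR fit of all 6 libraries with its 95% interval, circles the 6 fits that each left out a library, and diamonds the fit scaled by library totals only. TXNIP stays above 0 and SLC2A1, SLC16A1, SLC16A3 and ARRDC4 below 0 in every fit drawn, while SLC2A8 and BSG fall on both sides.

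The other genes of the pathway were taken from lists written by function. Together the lists held 84 genes, of which 68 were tested, 2 rose and 5 fell, and the median log2 fold change was -0.027. Over all tested genes the shares were 4.36% and 5.29%. In single lists of 7 to 11 tested genes, 0 or 1 past the threshold is near these shares.

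Of 15 other hexose carriers 9 were tested and 0 passed an adjusted p of 0.05 in edgeR, with a median log2 fold change of 0.072. SLC5A1, the sodium-coupled carrier SGLT1, had a log2 fold change of 0.0074. Of 18 other monocarboxylate carriers and partners 9 were tested, and 2 fell. SLC16A7, which encodes the high-affinity lactate and pyruvate carrier MCT2, was at 18.9, 17.4 and 17.8 CPM with siALDOA and at 30.2, 29.1 and 30.0 CPM with siControl. Its siALDOA libraries were well below the controls, and the log2 fold change of -0.72 (SE 0.084, adjusted p = 5.81e-06) passed under all 14 alternatives. It was larger in size than that of any member. SLC16A5, an MCT whose per-length level in siControl (60.4 ± 0.982 CPM per kb, SD, n = 3) was above that of SLC16A1 (53.6 ± 1.95) and SLC16A3 (49.8 ± 0.620), fell by 0.28 on the log2 scale (SE 0.079, adjusted p = 0.0279). Its call was lost with library totals only (adjusted p = 0.197), but not with the ribosomal RNA genes left out under that scaling (0.0280). The call was also lost without siALDOA replicate 1 (log2 fold change -0.17, adjusted p = 0.0698), siControl replicate 2 (0.0925) or siControl replicate 3 (0.0995). EMB, another partner of MCT carriers, had 2 counts in 1 library and 0 in the others.

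Of 9 other α-arrestins and their ubiquitin ligases 8 were tested and 1 fell. WWP1, a ligase of the family that α-arrestins recruit to their cargo, was at 72.9, 70.8 and 64.7 CPM with siALDOA and at 96.9, 88.8 and 92.1 CPM with siControl (log2 fold change -0.42, SE 0.065, adjusted p = 2.17e-04). ITCH, the ligase that degrades TXNIP, had a log2 fold change of -0.12 (adjusted p = 0.274). The other arrestins ARRDC1, ARRDC2 and ARRDC3 had log2 fold changes of -0.083, -0.33 and 0.23, with adjusted p of 0.470, 0.0903 and 0.266. In the thioredoxin system, to which TXNIP binds, 1 of 8 genes fell. TXNRD1, the cytosolic thioredoxin reductase, was at 298, 275 and 298 CPM with siALDOA and at 348, 353 and 344 CPM with siControl (log2 fold change -0.26, SE 0.055, adjusted p = 0.00383), and passed under all alternatives except library totals only (-0.19, adjusted p = 0.155). TXN itself had a log2 fold change of 0.0049 (adjusted p = 0.977).

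Of 11 transcription factors that act on the members 1 fell. EPAS1, which encodes HIF-2α, was at 35.6, 40.3 and 37.8 CPM with siALDOA and at 61.7, 64.6 and 70.6 CPM with siControl, which was -0.79 on the log2 scale (SE 0.073, adjusted p = 1.87e-07) and passed under all 14 alternatives. HIF1A had a log2 fold change of 0.021 (adjusted p = 0.874) and MYC of -0.18 (adjusted p = 0.0663). Of 8 other canonical hypoxia targets 1 rose: CA9, a carbonic anhydrase of the cell surface, was at 100.3, 103 and 93.3 CPM with siALDOA and at 75.3, 67.4 and 78.6 CPM with siControl (log2 fold change 0.42, SE 0.068, adjusted p = 2.83e-04). CA9 and SLC16A3, both hypoxia targets by background, thus had fold changes of opposite sign. CA9 passed under 14 of the 14 alternatives and SLC16A3 under 8. The other 7 targets of the list did not pass, and the median log2 fold change of the list was 0.029. Of 7 genes of GLUT trafficking 1 rose, RAB13, a small GTPase (log2 fold change 0.26, SE 0.074, adjusted p = 0.0319). The RAB13 call was lost in 5 of 6 cases with 1 library left out, with an adjusted p of 0.117 without siALDOA replicate 2, 0.0986 without siALDOA replicate 3, and 0.112, 0.0676 and 0.0833 without siControl replicates 1, 2 and 3.

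**Figure D4:**
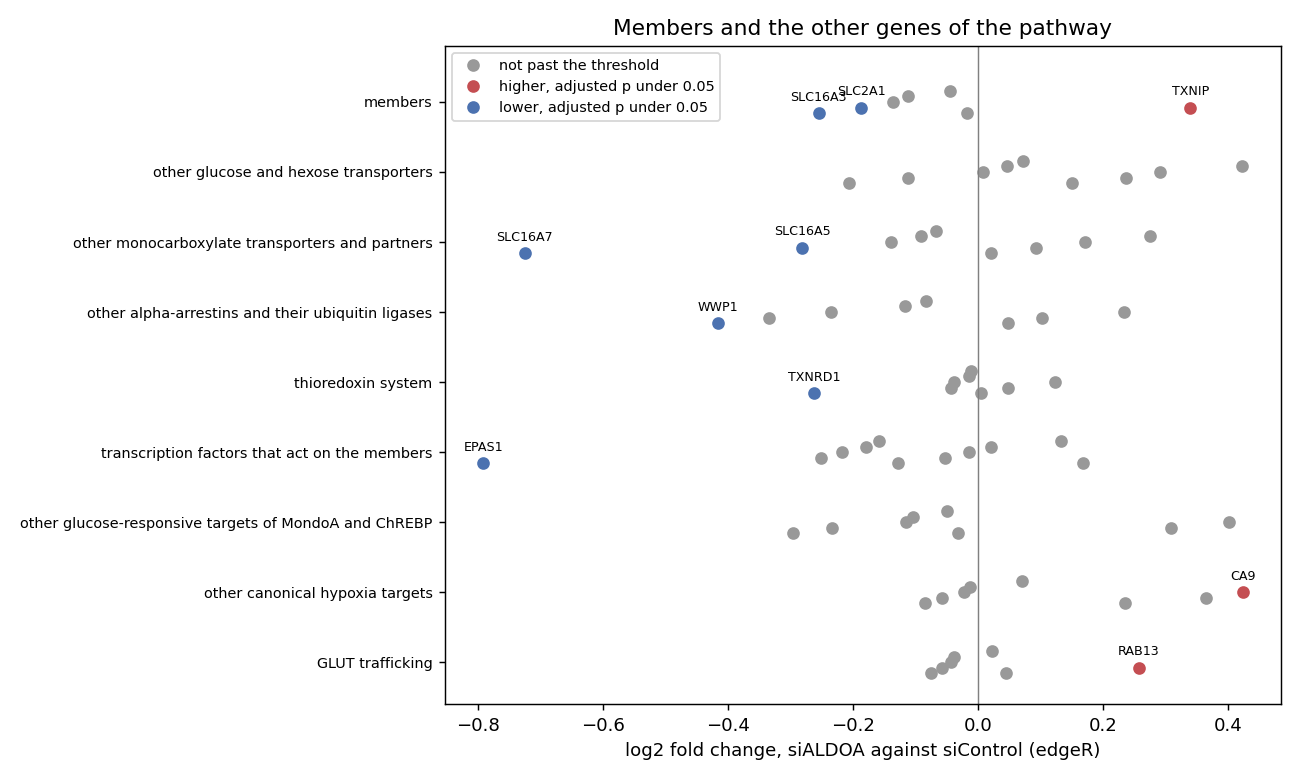
Log2 fold change (x axis, siALDOA against siControl) of every tested gene of the members and of the 8 lists of other pathway genes (rows). Red points rose and blue points fell at an adjusted p under 0.05, and grey points did not pass. EPAS1 (-0.79) and SLC16A7 (-0.72) lie farthest to the left, and most points of each list are grey.

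The 5 genes whose profile was most like that of TXNIP were ZNF83, SEC16B, BTC, ZNF337 and NUDT7. Likeness was the root mean square difference of log2 CPM over the 6 libraries, each gene centred on its own mean, among 13723 other genes averaging 1 CPM or more. The difference was 0.035 for ZNF83, 0.036 for SEC16B, 0.037 for BTC, 0.043 for ZNF337 and 0.051 for NUDT7. Because TXNIP was higher in every siALDOA library, genes chosen for this likeness are higher with siALDOA by choice, and their changes are not given as results. ARRDC4 ranked 8841 of the 13723 genes, with a difference of 0.27.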

How the data were processed

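Total RNA of HT29 cells was sequenced in 6 libraries, 3 per group. Per the labels and methods, reads were mapped by the authors with TopHat2 (hg38) and assigned to genes with gfold. Each deposited file holds whole-number counts per gene symbol without normalization, and the gene annotation and strand setting are not given in the sources used here. The test was that of edgeR 4.0.16 under R 4.3.3 (filterByExpr, TMM, quasi-likelihood F-test, no covariate), with a threshold of adjusted p = 0.05 over all tested genes. Each SE was obtained from the fold change and the F statistic. CPM of genes under the filter used the same scaling. log2 CPM used a prior count of 2. The fit was tested on simulated data. Alternatives used limma 3.58.1 and DESeq2 1.42.0, other scalings and filters, a replicate block, each library left out and the study's threshold of unadjusted p = 0.01. Ratios were compared in python 3.11.15 with scipy 1.17.1. Gene positions and lengths came from GENCODE release 44, and promoter windows from RefSeq, which held 8 of the 10 members and lacked SLC2A3 and SLC16A1. The members, lists and motifs were chosen with earlier results of these data known. The text names all members, the genes of each list past the threshold, others where a role called for them after their values were seen, and the 5 genes nearest TXNIP. Protein sequences were not used here. Replicates differed by more than sampling noise.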

Additional observations from a re-analysis of the deposited data

How the results depend on the processing

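By sign, TXNIP stayed higher and SLC2A1, SLC16A1, SLC16A3 and ARRDC4 stayed lower in all 14 alternative fits. An adjusted p under 0.05 was reached by TXNIP in 13 of them, by SLC16A3 in 8 and by SLC2A1 in 7. SLC16A1 and ARRDC4 reached it in 0. ALDOA, SLC16A7, WWP1, EPAS1 and CA9 kept their calls in all 14. The sign of SLC2A8 and BSG, neither of them called, turned with library totals only (0.059 and 0.031). With 1 library left out SLC2A8 ranged from -0.074 to 0.074, BSG from -0.10 to 0.053 and ARRDC4 from -0.23 to -0.0088. With library totals only, 1 member, 3 pathway genes and 896 of all genes rose, and 0 members, 3 pathway genes and 279 of all genes fell, against 668 higher and 810 lower genes with TMM. With the ribosomal RNA genes left out under that scaling, 1 member, 2 pathway genes and 735 of all genes rose. In that fit 2 members, 5 pathway genes and 760 of all genes fell. The median log2 fold change of all genes was 0.0099 there, against 0.075 with them kept. Without a filter on low counts 4 pathway genes rose and 10 fell, and with at least 10 counts in every library 1 member fell, SLC16A3, SLC2A1 having lost its call. At the study's unadjusted threshold 1 member rose and 2 fell. With 1 library left out, 0 to 1 members rose and 0 to 2 fell, 1 to 3 pathway genes rose and 4 to 7 fell, and over all genes 359 to 644 rose and 471 to 790 fell. The cause of these shifts was not tested.

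The replicate block, which treats libraries of the same number as pairs, gave 10 lower pathway genes, and 987 higher and 1175 lower genes over all, and changed no call of a member. Under the block the edgeR adjusted p was 2.1e-04 for TXNIP, 0.0176 for SLC2A1 and 0.0028 for SLC16A3, smaller than in the main fit. Deviations from the group means of same-numbered libraries correlated at 0.026 to 0.035 over genes. Each library correlated best with its own number. The correlations were weak and do not decide whether the numbers are pairs. The labels do not say so either, and the main fit had no block. For SLC2A8 and ARRDC4, the tested members of lowest count, the intervals reach from -0.34 to 0.24, so a shift like that of SLC2A1 could not be seen.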
